A study of Bos taurus with 81 samples.

Results

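The regions described here are 1 kb stretches of the cattle autosomes that carried trimethylated lysine 4 of histone H3 (H3K4me3) in 4-cell embryos and gained acetylated lysine 27 of the same histone (H3K27ac) by the 8-cell stage. The autosomes were divided into bins of 1 kb from the first base, and a bin was called marked in a library where peaks covered at least 50% of it. Members were selected on 6 libraries. They had to be marked in both H3K4me3 libraries of the 4-cell group, in both H3K27ac libraries of the 8-cell group and in no H3K27ac library of the 4-cell group. The rule gave 7859 of 2488055 autosomal bins, or 0.316%. Members made up 15.4% of the 50997 bins that had H3K4me3 in both 4-cell libraries and H3K27ac in neither, and 17.2% of the 45679 bins that gained H3K27ac between the 4-cell and the 8-cell group.

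The libraries came from bovine oocytes and in vitro produced embryos. The marks H3K4me3, H3K27ac, H3K27me3 and H3K9me3 were mapped by CUT&Tag, where an antibody brings a transposase to the mark. Each of these 4 marks had 2 libraries in each of 9 groups, and ATAC-seq, where a free transposase cuts accessible DNA, had 3 libraries in each of 3 groups, giving 81 libraries in all. The groups were germinal vesicle oocytes (GV), taken before maturation, and embryos of 2 cells (2C, 32 h after insemination), 4 cells (4C, 44 h) and 8 cells (8C, 56 h). A further 8-cell group (8A, also 56 h) was grown with α-amanitin, an inhibitor of RNA polymerase II, at 50 μg/ml. Morulae (MO) were taken at 122 h and blastocysts (BL) at 172 h. The inner cell mass (ICM) was isolated from blastocysts by immunosurgery, and the trophectoderm (TE) was cut from them with a blade. ATAC-seq covered BL, ICM and TE. Ovaries came from a slaughterhouse and a library pooled about 500 oocytes or 1000 to 1500 blastomeres, so a peak reports on the average of many embryos. The labels do not say that the libraries of a group came from separate cultures, so the spread between them may be technical.

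H3K4me3 lies over the starts of genes that are active or ready for activity, and in mouse oocytes it also forms broad domains away from gene starts. H3K27ac is laid down by the acetyltransferases p300 and CBP on promoters and enhancers in use. H3K27me3, the product of Polycomb repressive complex 2, and H3K9me3, a mark of heterochromatin, go with silenced sequence. In cattle the embryo's own genome is mainly activated around the 8-cell to 16-cell stage, so the step from 4C to 8C reaches the start of this main activation. The inhibitor α-amanitin is used to ask which changes of chromatin take place when embryonic transcription is blocked.

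Lists differed in size, and the depth of sequencing is unknown because the deposited lists give no read totals. H3K4me3 lists marked between 1.56% and 7.47% of all autosomal bins, H3K27ac lists between 1.26% and 6.05%, H3K27me3 lists between 4.42% and 11.3%, H3K9me3 lists between 3.88% and 7.54% and ATAC lists between 2.84% and 4.43%. The H3K4me3 lists of 8C stood furthest apart within a group: replicate 1 marked 2.76% and replicate 2 marked 4.72% of all bins. With 2 libraries against 2, an exact two-sided permutation test cannot give a p below 0.333, and members were chosen by the values of 6 of the libraries. Shares of members are therefore given for each library and set beside the same shares in other bins, without p-values.

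The values that chose the members were as follows. In 8C, H3K27ac covered a median of 900 of the 1000 bases of a member in each library, and 2161 members were covered in full in both. In 4C, H3K4me3 covered a median of 850 bases in each library. The absence of H3K27ac at 4C was less complete than the rule's wording implies. Only 3045 members (38.7%) had no base under a 4C H3K27ac peak in either library, 939 (11.9%) had 50 to 200 bases in the library with more, and 3875 (49.3%) had 250 to 450 bases. Peaks of H3K27ac that touched members in 4C had a median width of 450 bp in both libraries, and in 8C the peaks on members were 1500 and 1400 bp wide. Members were thus a mixture of bins with no acetylation peak at 4C and bins whose small 4C peak stayed below the limit.

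Just inside the limit, 1205 members had exactly 500 covered bases in the lowest of the 4 libraries that had to be marked, and 60.8% and 65.1% of them were marked by H3K27ac in the 8A libraries. Just outside, for 1356 bins with 450 bases in that library, the shares were 56.8% and 59.0%. On the side of the 4C H3K27ac limit, 1061 members with 450 bases had shares of 85.5% and 86.2%, and 1114 excluded bins with 500 bases had 89.2% and 89.8%. Across each limit the values of the libraries did not overlap, and the means differed by a few points.

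**Figure D1:**
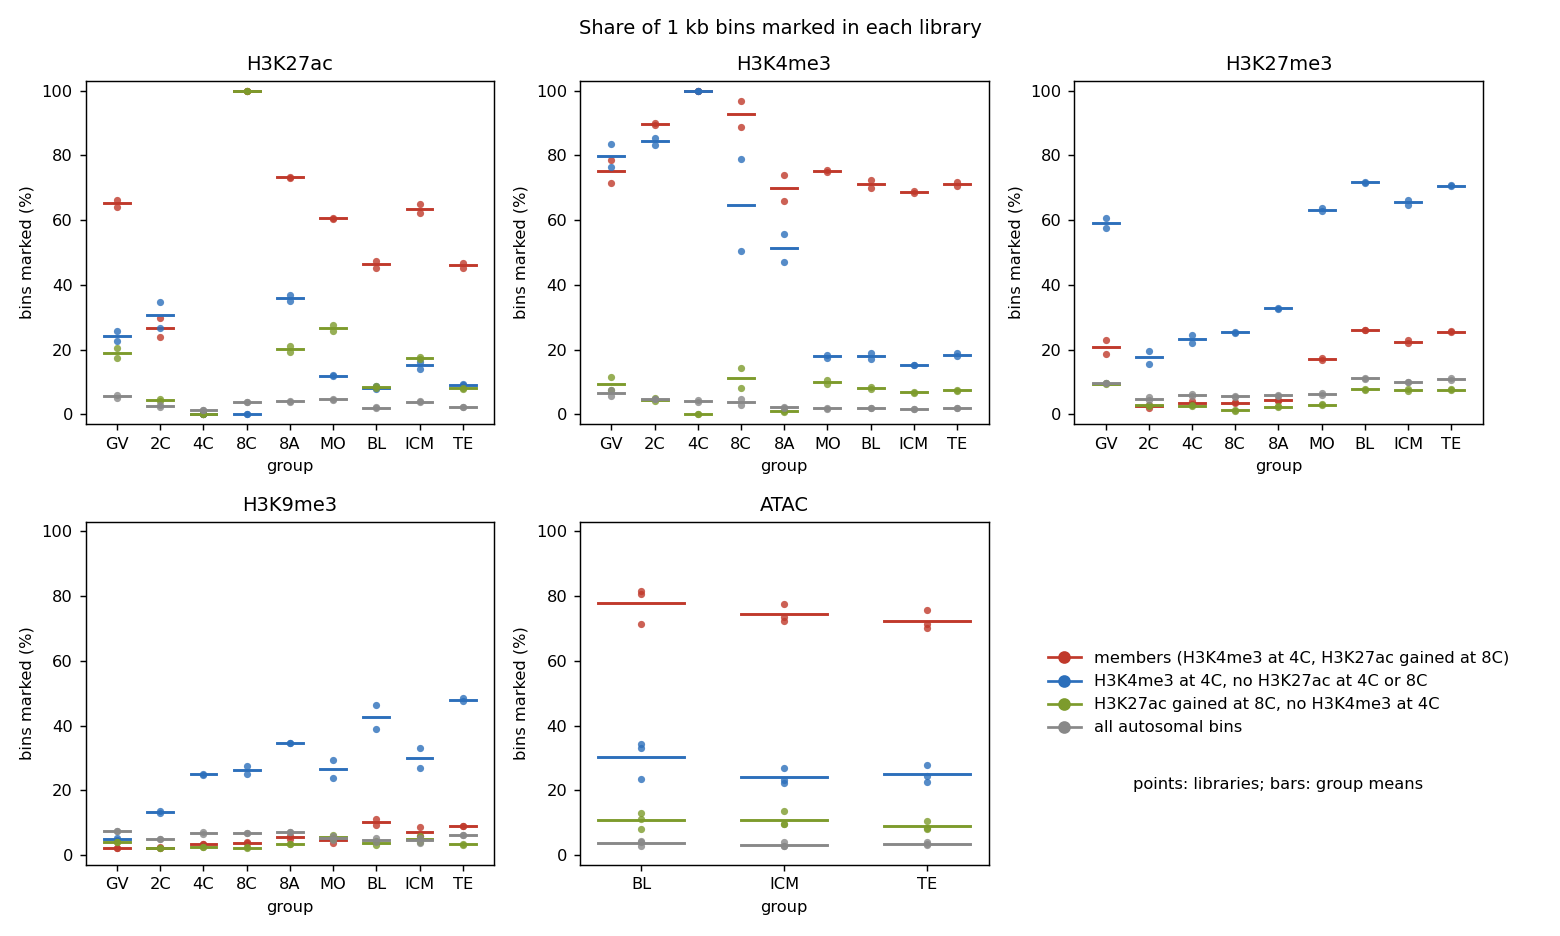
Share of 1 kb bins marked in each library (vertical axis, percent) by group (horizontal axis), with 1 panel for each mark and ATAC-seq; points are libraries and bars are group means. H3K27ac on members was at 64.2% and 66.3% in GV and at 72.9% and 73.4% in 8A; the values of 0 and 100 at 4C and 8C for H3K27ac and at 4C for H3K4me3 were set by the selection.

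Most members carried H3K27ac in embryos grown with α-amanitin. In 8A, 72.9% of members were marked by H3K27ac in replicate 1 and 73.4% in replicate 2 (mean 73.2% ± 0.351, SD, n = 2). Both 8A libraries marked 4879 members (62.1%), against 22.6% of all bins that gained H3K27ac from 4C to 8C. No 8A library marked 1233 members (15.7%), against 58.7% of all gained bins. The contrast was with gained bins that lacked H3K4me3 in both 4C libraries: of those 33709 bins, both 8A libraries marked 12% and no 8A library marked 71.5%. Shares in the 8A libraries were 19.3% and 21.2% for these bins and 3.85% and 4.13% for all autosomal bins.

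The 8C share of members is 100% by construction, so the drop from it to 8A has no meaning by itself. Bins were therefore picked with 1 of the 8C libraries and read in the other. Among bins with H3K4me3 in both 4C libraries and no H3K27ac at 4C, 10619 were marked by 8C replicate 1. The other 8C library marked 74.0% of them, and the 8A libraries marked 68.9% and 69.8%. Of the 9933 bins picked with 8C replicate 2, the other 8C library marked 79.1%, and the 8A libraries marked 70.7% and 71.5%. The 8A libraries were below the unused 8C library by 4.68 and 8.04 percentage points (mean difference -6.36).

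Without H3K4me3 at 4C, the same reading gave a wide gap. Of 57722 bins picked with 8C replicate 1, the other 8C library marked 58.4% and the 8A libraries 15.2% and 16.9%. Of 57334 picked with replicate 2, the values were 58.8%, 16.0% and 17.6%. The 8A libraries were thus 42.4 and 42.0 points below the unused 8C library (differences of -42.4 and -42.0), and the values of 8A and 8C did not overlap in either class of bins.

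The size of the small gap depended on how strictly absence at 4C was read. Where no base was under a 4C H3K27ac peak, the difference between 8A and the unused 8C library was -15.5 points among bins with H3K4me3, and -45.4 and -45.8 points for the picks without H3K4me3. It was -10.3 points when either 4C H3K4me3 library was left out, -2.73 without the first 4C H3K27ac library, -3.06 without the second and -11.9 with all lists of a mark shortened to one covered length. The sign was the same in each of these.

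**Figure D2:**
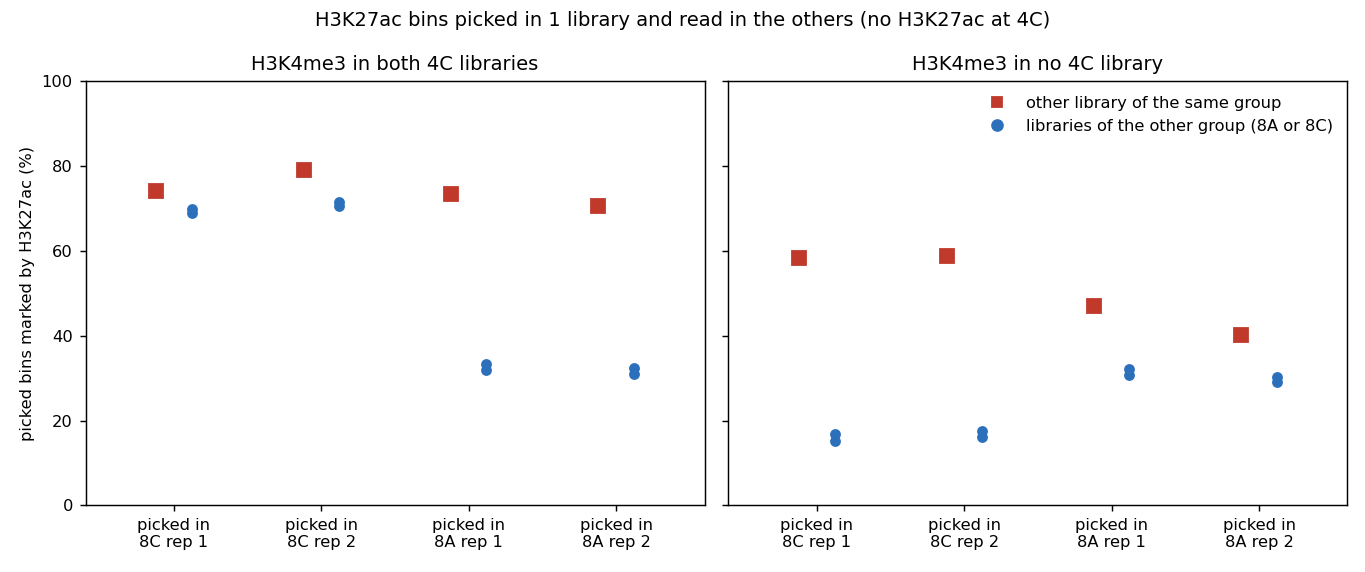
Share of bins marked by H3K27ac (vertical axis, percent) among bins picked with the single library named on the horizontal axis, for bins with H3K4me3 in both 4C libraries (left) and in none (right), all without H3K27ac at 4C. Squares are the unused library of the same group and circles the 2 libraries of the other group; for picks in 8C, circles lie at 68.9% to 71.5% on the left and at 15.2% to 17.6% on the right.

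Graded by the amount of 4C signal, the 8A share of members was higher from class to class. Both 8A libraries marked 47.3% of the 3045 members without a covered base at 4C, 62.0% of the 939 with 50 to 200 bases and 73.7% of the 3875 with 250 to 450 bases. The strictest class still stood above its counterpart: of 23373 gained bins that had neither H3K4me3 nor any H3K27ac base at 4C, both 8A libraries marked 6.17%, and of all 28136 gained bins without such a base, 11.6%. Members also lay closer to bins acetylated at 4C. An H3K27ac bin marked in both 4C libraries was found within 1 kb of 12.6% of members and within 5 kb of 25.5%, against 5.37% and 17.7% for gained bins without H3K4me3.

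Peaks of H3K27ac in 8C were also wider on members than on gained bins without H3K4me3 (1500 and 1400 bp against 1050 and 1000 bp, medians of the 2 libraries). The sets were therefore compared at like cover in 8C. Where the lower 8C library covered 500 to 700 bases, the 8A libraries marked 65.9% and 69.0% of 2744 members and 16.0% and 18.0% of 18535 gained bins without H3K4me3. Where both 8C libraries covered all 1000 bases, they marked 81.2% and 78.4% of 2161 members and 29.3% and 31.1% of 3847 other bins. The 8A share increased with 8C cover in both sets, and within each class of cover the values of members were above those of bins without H3K4me3 in both libraries.

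The acetylation seen with α-amanitin was not limited to members. Of the 50997 bins with H3K4me3 and no H3K27ac at 4C, 7859 (15.4%) were marked by both 8C libraries and 16180 (31.7%) by both 8A libraries. Both pairs marked 4879, both 8C libraries and no 8A library marked 1233, and both 8A libraries and no 8C library marked 9061. Picking in 8A and reading in 8C gave the mirror of the first comparison: of 22020 such bins picked with 8A replicate 1, the other 8A library marked 73.5% and the 8C libraries marked 33.2% and 31.9%. Bins of 4C H3K4me3 that stayed without H3K27ac in 8C, 38304 in number, were marked at 35.0% and 37.0% in 8A. On bins with 4C H3K4me3, H3K27ac was thus more widespread in 8A than in 8C, although the lists of the groups were of like extent (3.85% and 4.13% of all bins in 8A, 3.84% and 3.88% in 8C).

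H3K4me3 on members was less frequent in 8A than in 8C. In 8C, H3K4me3 marked 88.9% and 97.0% of members, and in 8A it marked 73.9% and 65.9%. The difference of the means was -23.1 points (SD of the difference 8.03, n = 2 and 2), and the values of the groups did not overlap. Over all autosomal bins the shares were 2.76% and 4.72% in 8C and 2.36% and 1.98% in 8A. Of the 6942 members marked by H3K4me3 in both 8C libraries, 878 (12.6%) were marked in no 8A library, against 24.7% of all bins with H3K4me3 in both 8C libraries. The share was 12.6% as well in bins of 4C H3K4me3 without H3K27ac at 8C. It was 83.9% of 2235 gained bins without 4C H3K4me3, that is, of bins where H3K4me3 was itself gained after 4C. In the opposite direction, 7 of 4566 members with H3K4me3 in both 8A libraries had it in no 8C library (0.153%), against 1.91% of all bins. With lists shortened to one covered length, the difference on members was -14.0 points.

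H3K4me3 peaks on members were also narrower in 8A. The median width of H3K4me3 peaks on members was 1100 and 1200 bp in 4C, 1750 and 2200 bp in 8C and 850 and 700 bp in 8A. Over all peaks the medians were 650 and 650 bp in 4C, 600 and 850 bp in 8C and 550 and 500 bp in 8A. Widths on members thus increased from 4C to 8C and were lower in 8A than in 4C in every library. On bins already acetylated at 4C, the medians were 1150 and 1300 bp in 4C and 850 and 750 bp in 8A. In 8C they were 1250 and 1850 bp. On 4C H3K4me3 bins that stayed without H3K27ac, they were 850 and 950 bp in 4C and 650 and 550 bp in 8A. In 8C these bins had 750 and 1200 bp. Narrower H3K4me3 peaks in 8A than in 4C are thus not particular to members. H3K27ac peaks on members, 1500 and 1400 bp wide in 8C, had medians of 850 and 1050 bp in 8A. Over all peaks the H3K27ac medians were 900 and 850 bp in 8C and 550 and 750 bp in 8A. The selection required 4C H3K4me3 cover and 8C H3K27ac cover. It so favours wide 4C H3K4me3 peaks and wide 8C H3K27ac peaks on members. At 1 kb upstream in coordinate order from the centre of a run of adjacent members, H3K4me3 peaks covered 60.3% of runs in 8C, 46.0% in 4C and 35.9% in 8A (means of 2 libraries). At the centre itself the values were 91.4%, 91.5% and 67.1%. For H3K27ac, the cover 1 kb away was 53.2% in 8C, 38.7% in 8A and 16.0% in 4C, and at the centre 94.4%, 69.7% and 11.3%. The 4C acetylation was lower at the centre than on the flanks, which the selection requires. Cover of members by 8C H3K27ac and by 4C H3K4me3 was likewise set by the selection.

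**Figure D3:**
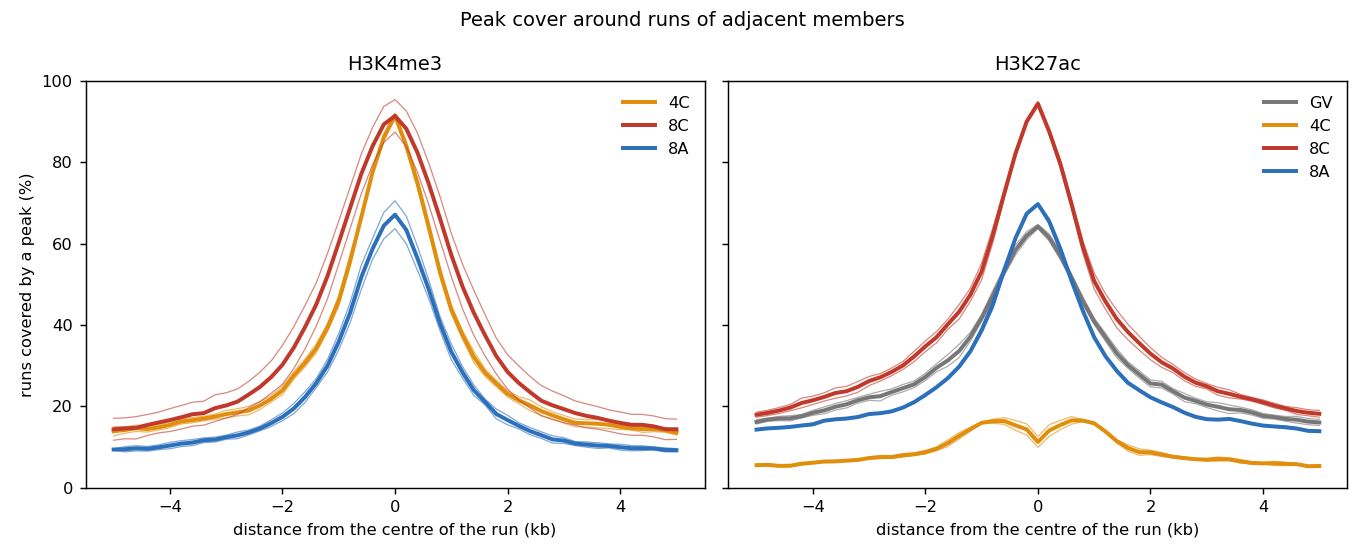
Share of 6228 runs of adjacent members covered by a peak (vertical axis, percent) against distance from the centre of the run (horizontal axis, kb) for H3K4me3 and H3K27ac; thick lines are means of 2 libraries and thin lines the libraries. H3K4me3 in 8C (60.3% at 1 kb upstream) lies outside the 4C curve (46.0%), and the 8A curve (35.9%) inside it.

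In 8A the marks occurred together on many members. Both H3K27ac and H3K4me3 were found in all 8A libraries on 3322 members (42.3%), and neither in any on 429 (5.46%). Of bins already acetylated at 4C, 60.3% had both and 0.878% neither, so the trait is not particular to members. Of 4C H3K4me3 bins without H3K27ac at 4C or 8C, 14.2% had both and 23.5% neither. H3K27ac in both libraries with H3K4me3 in none was seen on 569 members, and the reverse on 434. Members with H3K27ac in both 8A libraries more often had H3K4me3 in both 8A libraries (68.1%) than the 1233 without 8A H3K27ac (35.2%), and the same held in 8C (92.7% against 76.4%). The 1233 were also less often acetylated in both GV libraries (44.3% against 62.6%) and in both BL libraries (32.6% against 46.4%).

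Before the 4-cell stage, many members carried H3K27ac in the oocyte. In GV, H3K27ac marked 64.2% and 66.3% of members, against 22.5% and 25.7% of 4C H3K4me3 bins that stayed without H3K27ac, 17.3% and 20.4% of gained bins without H3K4me3 and 5.05% and 6.05% of all bins. Both GV libraries marked 4580 members (58.3%). H3K27ac peaks on members were 1150 and 1400 bp wide in GV (medians), against 600 and 800 bp over all GV peaks. The 10026 bins with both H3K4me3 and H3K27ac in both 4C libraries were near members in this respect, with GV H3K27ac at 55.3% and 60.0% and GV peaks of 1050 and 1300 bp, so the trait is not particular to members. With all lists shortened to one covered length, which also changes the members, the GV H3K27ac share was 47.9%. In 2C, the H3K27ac shares of members were 23.9% and 29.8%, and 12.3% were marked in both libraries. The 2C shares were 2.34% and 2.91% for all bins, 26.7% and 34.6% for 4C H3K4me3 bins that stayed without H3K27ac, 4.12% and 4.73% for gained bins without H3K4me3, and 67.2% and 72.4% for bins already acetylated at 4C. Of the 4580 members acetylated in both GV libraries, 2542 (55.5%) were in no 2C library, against 66.8% of all such bins. Over all autosomal bins the mean was also lower in 2C (2.62%) than in GV (5.55%), as in gained bins without H3K4me3 (4.42% against 18.8%). Other 4C H3K4me3 bins went the other way. The mean was 24.1% in GV and 30.6% in 2C where H3K27ac stayed absent, and 57.6% and 69.8% where it was present at 4C. Of bins acetylated in both GV libraries, 44.9% and 12.7% in these 2 sets were in no 2C library.

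H3K4me3 marked 71.4% and 78.8% of members in GV and 89.4% and 90.0% in 2C. Of 5172 members with H3K4me3 in both GV libraries, 67 (1.30%) had it in no 2C library, against 24.1% of all bins with H3K4me3 in both GV libraries. The same share was 0.849% on bins already acetylated at 4C and 2.98% on 4C H3K4me3 bins that stayed without H3K27ac. The low share is thus not particular to members. Both marks were present in all 4 GV libraries on 3300 members (42.0%). They were found together on 46.8% of bins already acetylated at 4C, so this state is not particular to members. The shares were 14.7% on 4C H3K4me3 bins that stayed without H3K27ac and 2.17% on gained bins without H3K4me3. With all lists shortened, the GV H3K4me3 share was 37.1%, where the mean with full lists was 75.1%; the cause was not tested. Bins of 4C H3K4me3 without H3K27ac had GV H3K4me3 at 76.3% and 83.6%.

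The later course split the members. In MO, H3K27ac marked 60.4% and 60.7% of members and H3K4me3 marked 74.8% and 75.6%. In BL, the values were 45.3% and 47.5% for H3K27ac and 70.0% and 72.4% for H3K4me3. The 4C H3K4me3 bins that had not gained H3K27ac were much less often marked, at 17.6% and 18.5% for H3K4me3 and 11.7% and 12.2% for H3K27ac in MO. Over all autosomal bins the means were 4.64% for H3K27ac and 1.89% for H3K4me3 in MO, and 2.03% and 1.94% in BL. From 8C to MO, 2683 members (34.1%) went from H3K27ac in both libraries to none, against 59.6% of all bins with H3K27ac in both 8C libraries. For H3K4me3, 1122 of 6942 members (16.2%) did so, against 51.1% of all bins. From MO to BL, 839 of 4339 members (19.3%) went from H3K27ac in both libraries to none, against 56.3% of all bins, and 328 of 5727 (5.73%) from H3K4me3 in both to none, against 15.3%.

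By the blastocyst stage, 3278 members (41.7%) had both active marks in every BL library, 1629 (20.7%) had H3K4me3 in both libraries and H3K27ac in none, 45 had H3K27ac alone by the same reading, and 2022 (25.7%) had neither mark in any library. Of the 4C H3K4me3 bins without H3K27ac at 8C, 5.91% had both marks and 79.0% had neither. Of bins already acetylated at 4C, 17.5% had both and 64.8% neither. ATAC-seq marked 71.5%, 80.7% and 81.6% of members in the BL libraries, against 2.84% to 4.43% of all bins. H3K4me3 with H3K27ac was the most frequent state in MO as well, on 4015 members (51.1%), with 1395 (17.8%) at neither.

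GV acetylation separated members with different later states. Of the 4580 members with H3K27ac in both GV libraries, 66.0% had it in both MO libraries and 54.8% in both BL libraries. Of the 2182 with H3K27ac in no GV library, the shares were 36.3% and 21%. H3K4me3 in both BL libraries was found on 80.5% of the first class and 47.5% of the second. The 8A state differed less between these classes, at 66.6% and 55.0% marked in both 8A libraries. Neither GV, MO nor BL libraries entered the rule. These shares were not computed for other bins split by GV acetylation, so the split cannot be called particular to members.

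**Figure D4:**
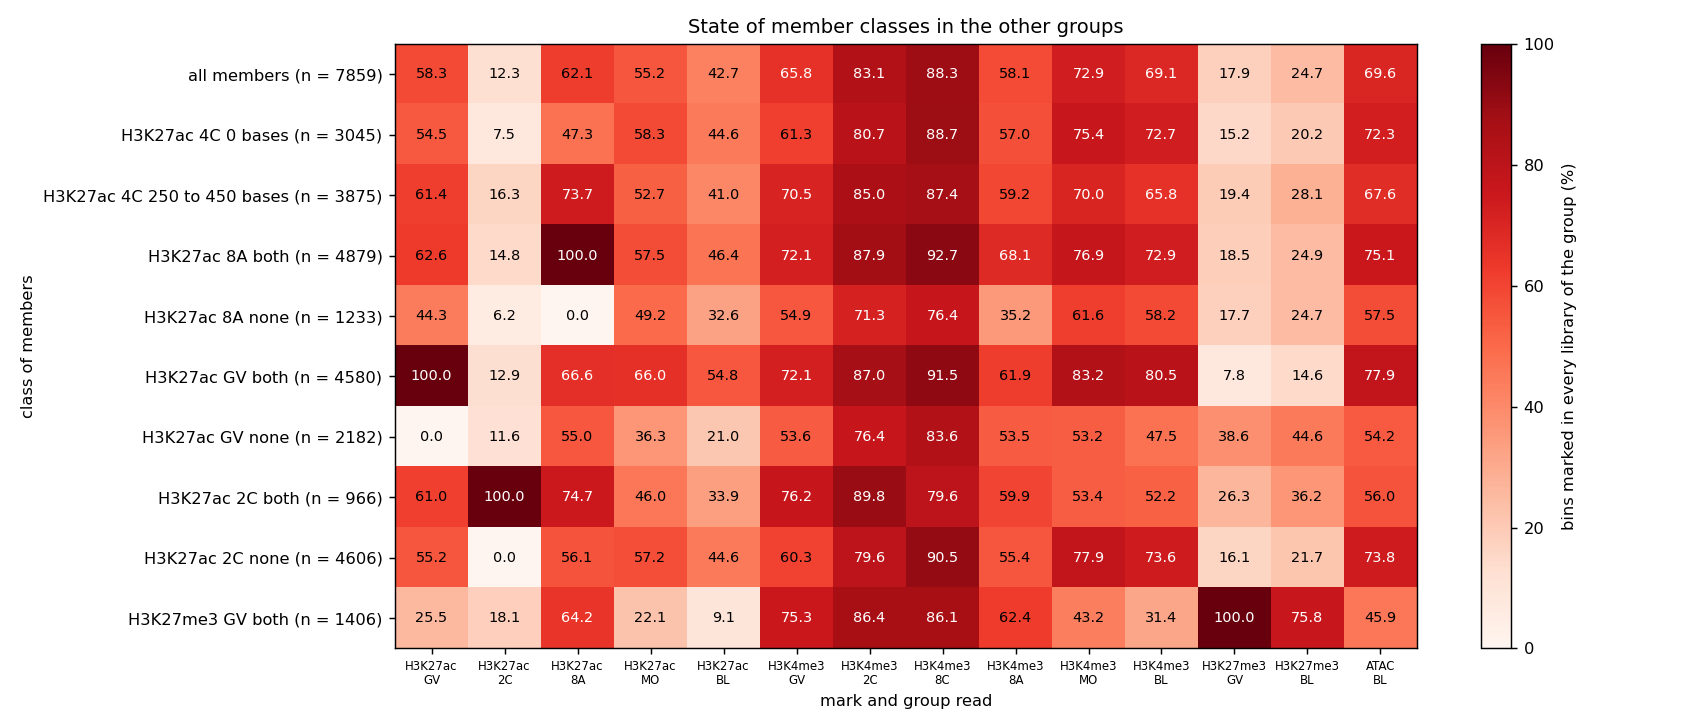
Percentage of bins marked in every library of the group named on the horizontal axis (color and printed value) for classes of members (rows, with their number). Members with H3K27ac in both GV libraries have H3K27ac in both BL libraries at 54.8%, and those with H3K27me3 in both GV libraries at 9.1%; cells of 100.0 and 0.0 follow from the definition of the row.

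When H3K27ac was followed through GV, 2C, MO and BL, 3985 members (50.7%) had libraries of each group in accord. The most frequent course, on 1370 of these (34.4%), was marked in GV, unmarked in 2C, and marked in MO and BL. On 685 (17.2%), H3K27ac was in no library of GV, 2C, 4C, MO or BL, so that among these untreated groups and 8C it was seen in 8C only. A further 477 (12%) were marked in GV and in none of 2C, MO and BL, and 247 (6.20%) were marked in all of them. Of the 31558 bins with libraries in accord among all that gained H3K27ac, the same 4 courses were taken by 6.90%, 59.9%, 9.16% and 0.932%, in that order. Marking in GV, MO and BL was thus more frequent on members than on all gained bins, and H3K27ac in none of these groups less frequent.

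Repressive marks were found on few members around the 4-cell and 8-cell stages, and H3K27me3 returned on a minority. H3K27me3 marked 22.9% and 18.7% of members in GV, 2.01% and 2.90% in 2C, 3.73% and 3.49% in 8C and 4.21% and 4.44% in 8A. It marked 17.3% and 16.9% in MO and 26.2% and 26.1% in BL. Over all bins the H3K27me3 means were 9.55% in GV, 4.84% in 2C, 5.56% in 8C, 5.98% in 8A, 6.28% in MO and 11.1% in BL. Of 7505 members with H3K27me3 in no 8C library, 1754 (23.4%) had it in both BL libraries, against 8.02% of all bins without it in 8C. Among 4C H3K4me3 bins without H3K27ac at 8C, 65.1% did so. Of the 1406 members with H3K27me3 in both GV libraries, 75.8% had it in both BL libraries, 9.10% had H3K27ac there, and 64.2% had H3K27ac in both 8A libraries. These shares were not computed for other bins with GV H3K27me3, so they cannot be called particular to members. Without regard to GV state, mean BL H3K27me3 was 71.7% on 4C H3K4me3 bins that stayed without H3K27ac. On bins already acetylated at 4C it was 58.2%. The 1271 members (16.2%) with H3K27me3 in both BL libraries and no active mark in any compare with 63.9% of the 4C H3K4me3 bins that had not gained H3K27ac. H3K9me3 marked 3.32% and 3.49% of members in 4C, 3.88% and 5.18% in MO and 9.16% and 11.3% in BL, where all bins were at 6.56% and 7.12%, 4.58% and 5.76%, and 4.03% and 5.38%. In 4C members were thus below all bins in both libraries, and in BL above them. The mean on members was 2.11% in GV and 10.2% in BL. In BL it was 42.6% on 4C H3K4me3 bins without H3K27ac at 4C or 8C and 30.8% on bins already acetylated at 4C. It was 3.71% on gained bins without H3K4me3. A BL share above all bins is thus not particular to members.

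Between the blastocyst lineages, H3K27ac on members was more frequent in the inner cell mass. It marked 65.1% and 62.1% in ICM and 45.3% and 46.8% in TE, a difference of 17.5 points (SD of the difference 2.39), without overlap of the libraries. The direction is not particular to members. Means in ICM and TE were 15.1% and 9.22% on 4C H3K4me3 bins that stayed without H3K27ac. They were 17.3% and 8.07% on gained bins without H3K4me3, and 28.3% and 21.5% on bins already acetylated at 4C. As a ratio of ICM to TE, members were at 1.38 and all bins at 1.69. Of 4756 members with H3K27ac in both ICM libraries, 962 (20.2%) had it in no TE library, against 47.5% of all bins with H3K27ac in both ICM libraries. In the other direction, 47 of 3275 members (1.44%) had it in both TE libraries and no ICM library, against 23.6% of all bins. ICM lists of H3K27ac were longer than TE lists, marking 3.83% to 4.11% against 2.28% to 2.40% of all bins. The part of list length in the difference was not tested beyond shortening the lists. That gave 12.1 points and also changed the members. H3K4me3 differed little, at 68.5% and 69.0% in ICM and 71.9% and 70.4% in TE. Accessibility was shared: 102 of 5332 members open in every ICM library were open in no TE library (1.91% against 15.1% of all bins), and 65 of 5101 the other way (1.27% against 18.2%).

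Members were short and scattered. They formed 6228 runs of adjacent bins, of which 4950 were a single bin, and the longest was 8 kb. Members per 1000 bins ranged from 1.5 on chromosome 28 to 10.8 on chromosome 18, followed by 8.24 on chromosome 25 and 7.52 on chromosome 19. Bins with H3K4me3 in both 4C libraries were also dense there, at 6.64% of bins on chromosome 18, 8.03% on 25 and 7.0% on 19. Members were 23.6%, 14.6% and 15.5% of the 4C H3K4me3 bins without 4C H3K27ac on chromosomes 18, 25 and 19, against 15.4% over all autosomes. The share of members marked by H3K27ac in both 8A libraries ranged from 52.9% on chromosome 22 to 79.2% on chromosome 12. On each autosome it stood above 22.6%, the share of gained bins over all autosomes together. Shares of gained bins for single chromosomes are not given here.

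Named regions are given in ARS-UCD1.2 coordinates. The longest run, chr29:50221001-50229000, was far from typical. H3K4me3 peaks covered 91.9% and 94.4% of it in 4C, 95.6% and 98.1% in 8C and 93.8% in each 8A library, and 0 in every library of MO, BL, ICM and TE. H3K27ac covered 95.0% and 86.9% of it in 8C, 25.6% and 12.5% in 8A, 31.9% and 24.4% in 2C and 0 in 4C, GV and all later groups. H3K27me3 covered it in full in both MO libraries and H3K9me3 in full in both BL libraries. Both of these marks were there in 8C (82.5% and 80.0% for H3K27me3, 100% in each library for H3K9me3) and before it. H3K27me3 covered the run in full in both GV libraries and over 85% and 75% in 2C. H3K9me3 covered 100% and 85% of the run in 4C. It is also the longest run of the class without an active mark in any MO, BL, ICM or TE library, which held 1151 members (14.6%).

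The next longest runs, of 6 kb each, followed several courses. On chr5:30474001-30480000, H3K27ac covered 65.0% and 62.5% in GV, 7.50% and 0 in 4C, 89.2% and 96.7% in 8C, 59.2% and 74.2% in 8A, 66.7% and 60.0% in ICM and 14.2% and 0 in TE. On chr7:15842001-15848000, 8A acetylation was as wide as in 8C (90.8% and 81.7% against 89.2% in each library), and MO had 18.3% in each library. On chr18:53227001-53233000, H3K27ac covered 98.3% and 92.5% in 8C and 30.0% and 14.2% in 8A, and H3K4me3 covered 88.3% and 90.8% in 8A. The run chr18:49898001-49904000, also the longest with H3K27me3 in both BL libraries throughout, was covered in full by H3K27me3 in both GV and both BL libraries and by none in 2C, 4C, 8C or 8A. Its H3K27ac was at 89.2% and 83.3% in 8C, 64.2% and 58.3% in 8A, 10.0% and 0 in ICM, and 0 in MO, BL and TE.

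Other runs stand for the classes above. The longest with every bin acetylated in both 8A libraries, chr18:63211001-63216000, had H3K27ac over 87.0% and 100% in 8A and over 13% and 30.0% in 4C. The longest with neither active mark in any 8A library, chr3:105415001-105417000, had H3K27ac over 92.5% and 90.0% in 8C, none in 8A and 67.5% and 80.0% in MO. The longest with GV acetylation throughout, chr29:43752001-43758000, had H3K27ac over 89.2% and 95.0% in GV, 7.50% and 0 in 4C, 92.5% and 81.7% in 8C and 42.5% and 52.5% in 8A.

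Among runs with both active marks in every library of MO, BL, ICM and TE, a class of 2613 members (33.2%), the longest was chr9:36555001-36559000, where H3K27ac covered 81.3% to 96.3% in these libraries. The longest run acetylated in both ICM and no TE library was chr7:24262001-24265000. There H3K27ac covered 98.3% and 91.7% in ICM and 31.7% and 0 in TE, H3K4me3 covered 96.7% to 100% in both lineages, and H3K27me3 covered it in full in TE and was absent in ICM. The reverse class held 47 members, and its first run, chr1:5830001-5831000, was 1 bin with H3K27ac over 60.0% and 75% in TE and none in ICM.

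**Figure D5:**
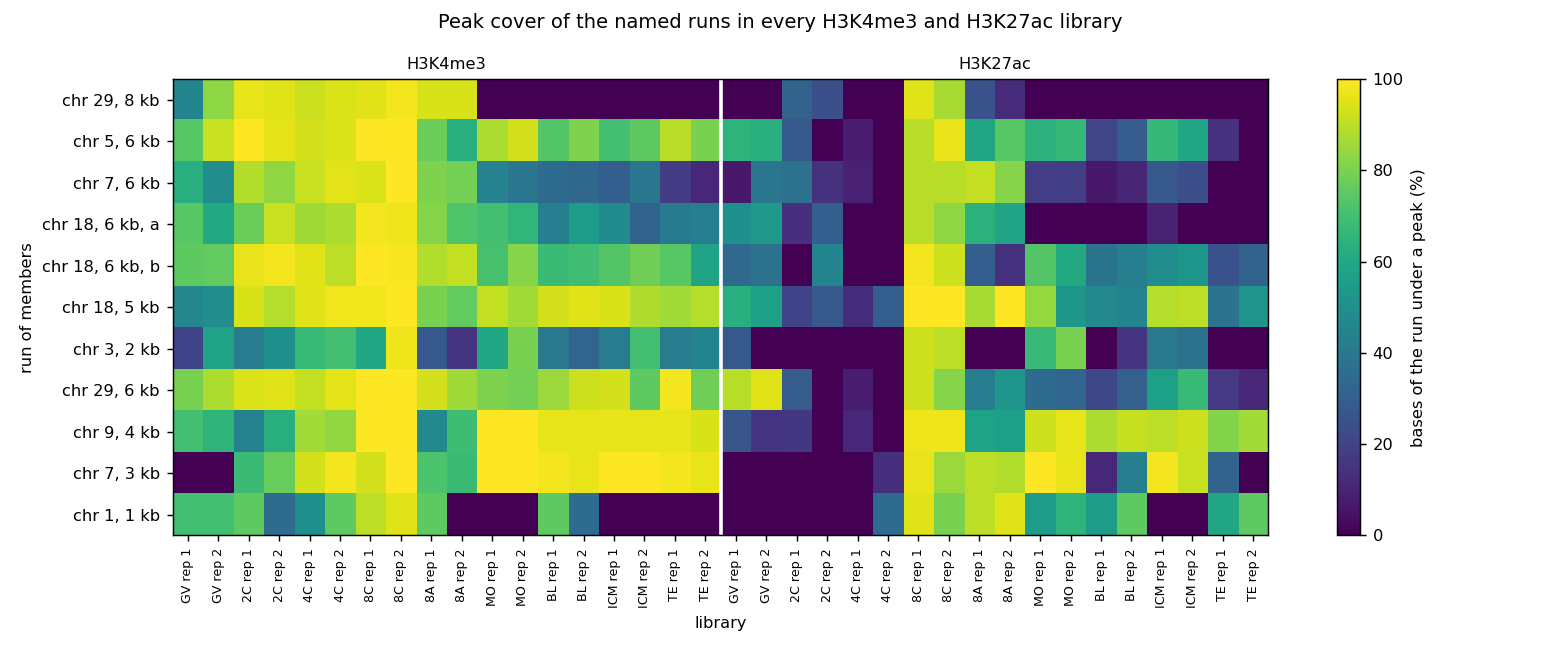
Percentage of the bases of each named run (rows, by chromosome and length; a and b tell apart the 2 runs of like length on chromosome 18 in order of position) under a peak in each H3K4me3 and H3K27ac library (columns). The 8 kb run on chromosome 29 has no H3K4me3 or H3K27ac cover from MO onward, and the 4 kb run on chromosome 9 has H3K27ac cover of 81.3% to 96.3% there.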

How the data were processed

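The authors deposited 1 peak list for every library. The submitters' processing notes name the ARS-UCD1.2 build, the aligner BWA 0.7.9a, the read trimmers cutadapt 1.8.3 and Trim Galore 0.4.0, SAMtools 1.9, Picard 2.26.10 and the peak caller SICER. The lists are named for the caller epic2. Not given in the sources used here were cutoff, control and duplicate handling. The deposited score per peak has no stated meaning and served only to rank peaks within a list. The deposited peak end was read as the last base covered, since widths then are multiples of 50 bp.

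Bases under peaks were summed in 1 kb bins in Python 3.11.15 (pandas 2.3.3, NumPy 2.4.6), and the counting was tested on simulated peaks. "Every" and "no" library refer to the libraries of a group, and means are given with the SD between libraries. The background share counts all autosomal bins that met the starting state. Members, comparison sets and classes were chosen with earlier results of these data known. Named regions are the 5 longest runs of adjacent members and the longest run of each class. Alternatives were a bin limit of 25% or 75%, bins shifted by 500 bp, lists shortened by score to one covered length per mark, and each library left out. Exclusive peak ends and no H3K27ac base at 4C were added after seeing the data. No annotation of the build was at hand, so the planned gene lists were not analysed here, and no p-value was computed.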

Additional observations from a re-analysis of the deposited data

Results flagged for a closer look

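Bins outside the autosomes also met the selection, although no comparison uses them. There were 183 such bins on chromosome X (1.32 per 1000 bins), of which 63.4% and 68.3% were marked by H3K27ac in the 8A libraries. On unplaced scaffolds 24 bins met it, of which 62.5% and 66.7% were marked in 8A. These shares lie below the autosomal 72.9% and 73.4%, and the difference was not tested.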

How the results depend on the processing

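Over 12 results, 168 alternatives were run. Only 3 results are signed differences, and none of their 44 alternatives changed the sign; the other 9 are counts or shares, which have no sign. In 94 of the 168 the value moved by less than the SD between libraries, or the count by less than 1.5 times. For some of these the outcome was fixed. Leaving out 1 of the 2 libraries in which a share is read always moves the mean by less than that SD. For those that moved further the cause was not tested unless given here. No paired analysis was possible because the results come from no test. With lists shortened to one covered length per mark, which keeps the highest-scoring peaks, there were 2365 members, H3K27ac marked 67.9% in 8A, 47.9% in GV, 49.6% in MO and 52.8% in BL, and H3K4me3 marked 37.1% in GV, 84.1% in MO and 78.6% in BL. The differences were then -11.9 points for 8A minus the unused 8C library, -14.0 for H3K4me3 in 8A minus 8C and 12.1 for ICM minus TE. Requiring no H3K27ac base at 4C left 3045 members by construction, with H3K27ac at 60.4% in 8A, 61.7% in GV, 19.2% in 2C, 63.5% in MO and 48.6% in BL, H3K4me3 at 77.7% in MO and 74.8% in BL, and a difference of -15.5 points from the unused 8C library. With a bin limit of 25%, H3K27ac was at 71.9% in 8A, 67.7% in GV, 65.6% in MO and 51.3% in BL, and H3K4me3 at 76.0% in MO and 73.1% in BL. With 75%, H3K27ac was at 71.3% in 8A, 61.7% in GV, 22.5% in 2C, 56.8% in MO and 43.6% in BL, and H3K4me3 at 76.1% in MO. Shifting bins by 500 bp gave 73.7% in 8A and 61.5% in MO for H3K27ac, and exclusive peak ends gave 76.1% for H3K4me3 in MO.

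Leaving out each library in turn gave 9478 to 10619 members. H3K27ac shares then ranged from 67.8% to 78.1% in 8A, 60.8% to 66.6% in GV, 23.9% to 31.7% in 2C, 54.8% to 60.7% in MO and 41.1% to 47.5% in BL. H3K4me3 shares ranged from 68.0% to 78.8% in GV, 66.6% to 75.6% in MO and 62.9% to 72.4% in BL. The differences ranged from -10.3 to -2.73 points for 8A minus the unused 8C library, -27.9 to -19.0 for H3K4me3 in 8A minus 8C and 16.0 to 19.0 for ICM minus TE. The reading in an unused 8C library needs both 8C libraries, so neither could be left out there. Depth is unknown, and list length stood in for it only through the shortened lists.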
